A study of Mus musculus with 10 samples.

Results

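The mitochondrial pyruvate carrier, the E1 enzyme of the pyruvate dehydrogenase complex and the kinases and phosphatases that switch this enzyme were described by 10 genes, Mpc1, Mpc2, Pdha1, Pdhb, Pdk1, Pdk2, Pdk3, Pdk4, Pdp1 and Pdp2. The genes were listed by name for their role in this step, with earlier results of these data known, and they are 10 of the 56748 gene identifiers in the count tables. Pyruvate, the end product of glycolysis, crosses the inner mitochondrial membrane through a carrier made of the MPC1 and MPC2 proteins. Pyruvate dehydrogenase then converts it to acetyl-CoA, and its E1 enzyme is built from alpha (Pdha1) and beta (Pdhb) subunits. Pyruvate dehydrogenase kinases phosphorylate the alpha subunit and switch the enzyme off, and the phosphatases of Pdp1 and Pdp2 switch it back on, so that the heart can shift between glucose and fatty acids as fuel.

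The RNA came from whole hearts, atria and ventricles included, of 10 wild-type C57BL/6 mice bought at 8 weeks of age. The 5 mice of the training group (labelled Exercise) ran on a treadmill at 15 m/min for 120 min per day, 5 days per week, for 8 weeks. The 5 mice of the sedentary group (labelled Control) did not train. Training was forced, the hearts were collected only at the end of the 8 weeks, and the only contrast is between these groups.

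Gene counts summed to 29461697 to 35945417 reads in the training hearts (median 34231778) and to 35196993 to 39431030 reads in the sedentary hearts (median 37754308). All 10 genes passed the filter on low counts, with between 125 and 102778 reads per gene and heart. Of 15454 genes tested, 7.01% differed between the groups at a false discovery rate (FDR) below 0.1, 2.75% higher and 4.26% lower after training. The sums of 9 cardiomyocyte marker genes were high in every heart, at 64364 to 68852 CPM (counts scaled to the effective library size) in the training and 67752 to 77699 CPM in the sedentary hearts. The changes of all 9 lay below 0 (median −0.11 on the log2 scale), and 1 of them, Actc1, fell. Of 9 atrial markers, 4 rose (Sln, Kcnj3, Stard10 and Dkk3) and 1 fell (Kcna5), all named after their values were seen, and the sums of the 9 ranged from 5391 to 8001 CPM in the training and from 3018 to 7140 CPM in the sedentary hearts. In whole-heart RNA, fewer cells of a type and less RNA per cell cannot be told apart.

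The change of the 10 genes was small. Pdp1, a phosphatase that activates the enzyme, rose by 15.0% in the training hearts and was the only gene of the 10 below an FDR of 0.1, where 7.01% of all genes tested were. Another 3 genes, Mpc1, Mpc2 and Pdhb, were below an unadjusted p of 0.05, as 20.0% of all genes were, and had lower means after training but did not pass the FDR. The log2 fold change, training against sedentary, was below 0 in 7 and above 0 in 3 genes, with a median of −0.04 over the 10 and of 0.00026 over all genes tested. In none of the 10 were the training and sedentary hearts fully separated, as they were in 5.06% of all genes. At an FDR below 0.05, none of the 10 passed in edgeR's quasi-likelihood test, and 4 had an unadjusted p below 0.05.

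**Figure D1:**
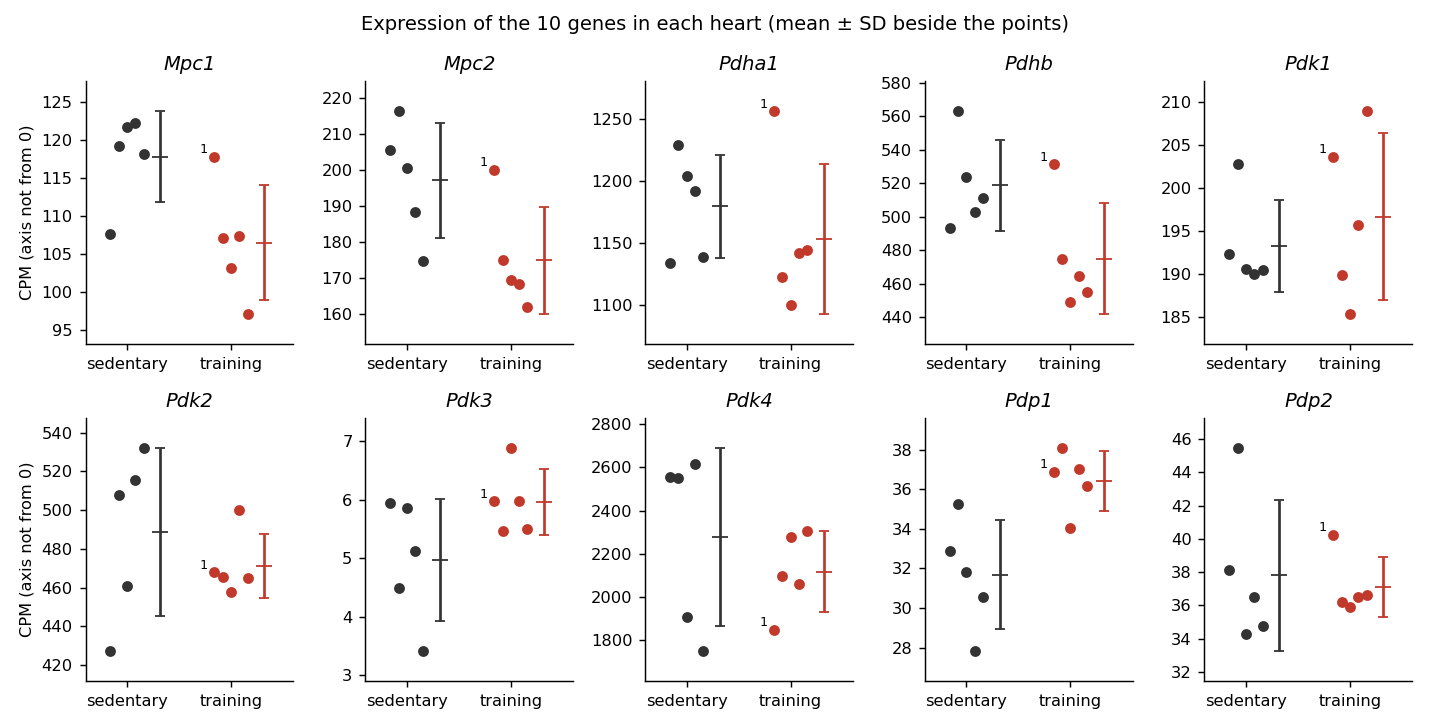
Expression of each gene in CPM (vertical axes, not starting at 0) in the 5 sedentary hearts (black) and the 5 training hearts (red), with the mean ± SD beside the points and training heart 1 marked. The groups overlap in all 10 genes, and training heart 1 is the highest of the training hearts in 5 of them.

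Per transcript length, the 10 genes spanned a wide range of levels. The scale is TPM, the authors' RSEM estimates scaled by transcript length, averaged over the 10 hearts. Pdk4 was highest with 685 TPM, above 99.4% of the genes tested. Pdha1 followed with 438 TPM, Pdhb with 391.7 TPM, Mpc2 with 238 TPM and Pdk2 with 231 TPM. Mpc1 was also at 438 TPM, but this value includes reads shared out between several places, so that its place in the order rests on that sharing. By unique counts per length Mpc1 lay below Mpc2, Pdk2 and Pdhb in each of the 10 hearts. That scale leaves out the shared reads but divides by the whole length, so it places Mpc1 too low and cannot decide the order. Lower levels were found for Pdk1 with 44.9 TPM, Pdp1 with 13.5 TPM, Pdp2 with 6.91 TPM and Pdk3 with 2.88 TPM, which was above 36.2% of the genes tested. By TPM, Pdha1 and Mpc1 did not differ beyond their spread, since Pdha1 was above Mpc1 in 3 of 10 hearts. Mpc2 was above Pdk2 in 7 of 10 hearts, and the ranges of these genes overlapped. Pdha1 was above Pdhb within each of the 10 hearts although their ranges overlapped. Leaving Mpc1 aside, all other neighbours in this order were separated in every heart. TPM was used here to compare genes with each other only, since the mean TPM of 5 genes (Mpc1, Mpc2, Pdha1, Pdk2 and Pdp2) was higher in the training hearts while their mean CPM was lower, and Pdk1 had the reverse.

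**Figure D2:**
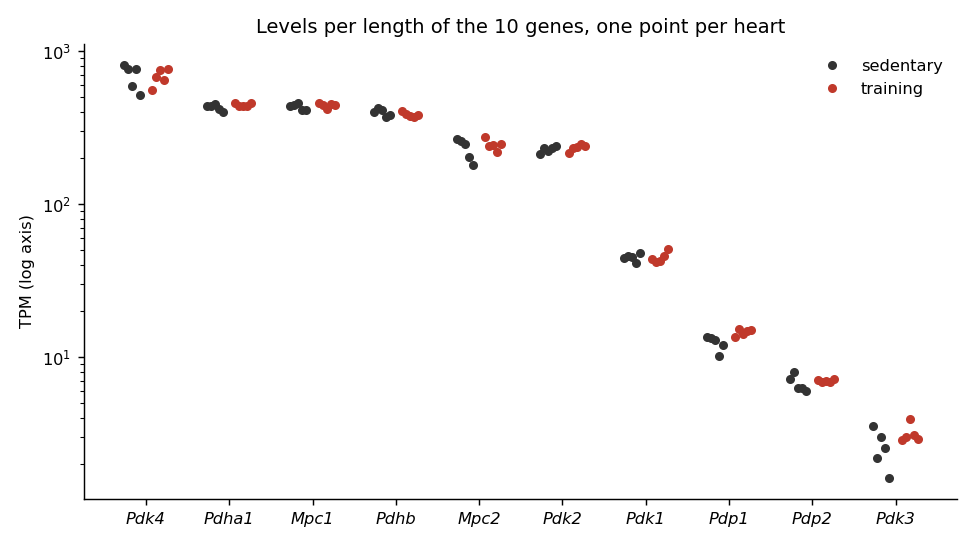
Levels of the 10 genes in TPM on a log axis, 1 point per heart, sedentary hearts in black and training hearts in red, with the genes ordered by their mean over the 10 hearts. Pdk4 lies highest with a mean of 685 TPM and Pdk3 lowest with 2.88 TPM.

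The pyruvate carrier genes had lower means after training and did not pass the FDR. Mpc1 (ENSMUSG00000023861, chr17:8501736-8516498 of GRCm39, plus strand) was at 108, 119, 122, 122 and 118 CPM in sedentary hearts 1 to 5 and at 118, 107, 103, 107 and 97.1 CPM in training hearts 1 to 5. Training hearts 2 to 5 lay below every sedentary heart, while training heart 1 lay among the sedentary hearts and sedentary heart 1 was far below the other sedentary hearts. The log2 fold change of Mpc1 was −0.15 (standard error 0.053, 95% interval −0.26 to −0.03, adjusted p = 0.147 in edgeR's quasi-likelihood test, Benjamini-Hochberg adjusted). Mpc2 (ENSMUSG00000026568, chr1:165287125-165308785, plus strand) was at 206, 216, 201, 188 and 175 CPM in the sedentary and at 200.2, 175, 169, 168 and 162 CPM in the training hearts. Again training heart 1 was the highest of its group, and 3 training hearts lay below every sedentary heart. For Mpc2 the log2 fold change was −0.17 (standard error 0.065, 95% interval −0.31 to −0.03, adjusted p = 0.160 in the same edgeR test).

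The value of Mpc1 depended on how reads with several possible origins were counted. A stretch of 756 bases, 67.0% of its 1128-base main transcript, has a copy of 100.0% identity at chr12:110824504-110825259, annotated as the pseudogene Mpc1-ps inside the Zfp839 locus. Uniquely mapped reads, the counts used above, leave out reads that fit both places. The expected counts of RSEM, which shares out such reads, were 2.64 times as high for Mpc1 (2.45 to 2.88 over the hearts), against 0.967 to 1.05 times for the other 9 genes. With the expected counts, the log2 fold change of Mpc1 was −0.04 and that of Mpc2 remained −0.17. The ratio of Mpc1 to Mpc2 was 1.82 ± 0.15 (SD, n = 5) in the training and 1.90 ± 0.25 (SD, n = 5) in the sedentary hearts by TPM, and 0.668 ± 0.062 and 0.750 ± 0.12 by unique counts per length. The unique counts were divided by the whole length, the shared stretch included, so they understate Mpc1 and cannot order the carrier genes. The order by TPM, with Mpc1 above Mpc2, rests on how RSEM shared out the reads. Its mean expected counts were 10432 for Mpc1 and 529 for Mpc1-ps. Mpc2 also overlaps Gm37860 on the same strand, and reads in the shared stretch cannot be assigned to either gene.

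Between hearts of a group the genes of the E1 enzyme varied little, with an SD of 0.063 for Pdha1 and 0.086 for Pdhb on the log2 CPM scale. Pdha1 (ENSMUSG00000031299, chrX:158904237-158921426, minus strand), which encodes the subunit that the kinases phosphorylate, was at 1134, 1229, 1204, 1192 and 1139 CPM in the sedentary hearts. In the training hearts it was at 1256, 1122, 1100.0, 1142 and 1145 CPM. Training heart 1 was above all other hearts, and the other 4 training hearts lay between 1100.0 and 1145 CPM. The log2 fold change of Pdha1 was −0.03 (standard error 0.046, adjusted p = 0.749 in edgeR's quasi-likelihood test, Benjamini-Hochberg adjusted), and its 95% interval of −0.13 to 0.07 bounds a change in either direction.

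Pdhb (ENSMUSG00000021748, chr14:14296739-14304802, plus strand), the beta subunit, was at 493, 563, 524, 503 and 511 CPM in the sedentary hearts and at 532, 475, 449, 464 and 455 CPM in the training hearts. Here 4 training hearts lay below every sedentary heart, and training heart 1 lay above 4 of the sedentary hearts. For Pdhb the log2 fold change was −0.13 (standard error 0.053, 95% interval −0.24 to −0.01, adjusted p = 0.201 in the same edgeR test). A pseudogene, Gm6123 at chr1:4841324-4842766, holds a copy of 97.0% identity over 1455 aligned bases, but unique counts on it were 10 to 31 reads per heart, and the expected counts of Pdhb were 1.05 times the unique counts. In the same model without training heart 1, Mpc1, Mpc2 and Pdhb had log2 fold changes of −0.18, −0.23 and −0.17 and all 3 passed the FDR, with adjusted p = 0.0586, 0.0544 and 0.0630 (edgeR). This heart was singled out after its values were seen. Over the 10 fits that left out 1 heart, Mpc1 and Mpc2 passed in 2 each and Pdhb in 1. The highest adjusted p of these fits were 0.291, 0.302 and 0.371 (edgeR).

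The ratio of the E1 subunits was higher in the training hearts by TPM. Pdha1 was at 1.16 ± 0.032 (SD, n = 5) times Pdhb after training, with a range of 1.12 to 1.20, and at 1.08 ± 0.034 times (SD, n = 5) in the sedentary group, with a range of 1.04 to 1.12. On this scale no training heart overlapped a sedentary heart, but the gap was narrow, from 1.120 in the highest sedentary to 1.125 in the lowest training heart. The groups overlapped in all other ratios and shares of transcripts described here. By unique counts per length, the ratios were 1.24 ± 0.037 and 1.16 ± 0.040 and the ranges, 1.19 to 1.28 and 1.11 to 1.22, overlapped. No test was run on these ratios.

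Heart by heart, the E1 subunits varied together. After the group means were removed from the log2 CPM of the 10 hearts, Pearson's r of Pdha1 with Pdhb was 0.88 and Spearman's rho was 0.78, with a permutation p of 0.00114 for r (0.00456 after Benjamini-Hochberg adjustment over 4 pairs of genes) and of 0.0102 for rho (adjusted 0.0410). Without training heart 1 and sedentary heart 2, which lay farthest from the median of Pdha1, r was 0.51 (permutation p = 0.197), so that the relation rested on these hearts. For the other 3 pairs, r was 0.43 for Mpc1 with Mpc2, −0.24 for Pdk2 with Pdk4 and 0.61 for Pdp1 with Pdp2, and rho was 0.42, −0.22 and 0.62. None of these 3 passed the permutation test, with adjusted p-values for r of 0.290, 0.508 and 0.142 and for rho of 0.309, 0.538 and 0.121. Without the 2 hearts farthest from the median of the first gene of each pair, r was 0.63 for Mpc1 with Mpc2, 0.53 for Pdk2 with Pdk4, where the sign turned, and 0.33 for Pdp1 with Pdp2 (permutation p = 0.0915, 0.175 and 0.424). The E1 subunits were not alone in varying together, since r, given here as a description with no test, was also 0.72 and 0.70 for Pdha1 with Mpc1 and Mpc2 and 0.73 and 0.76 for Pdhb with Mpc1 and Mpc2 (10 hearts).

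**Figure D3:**
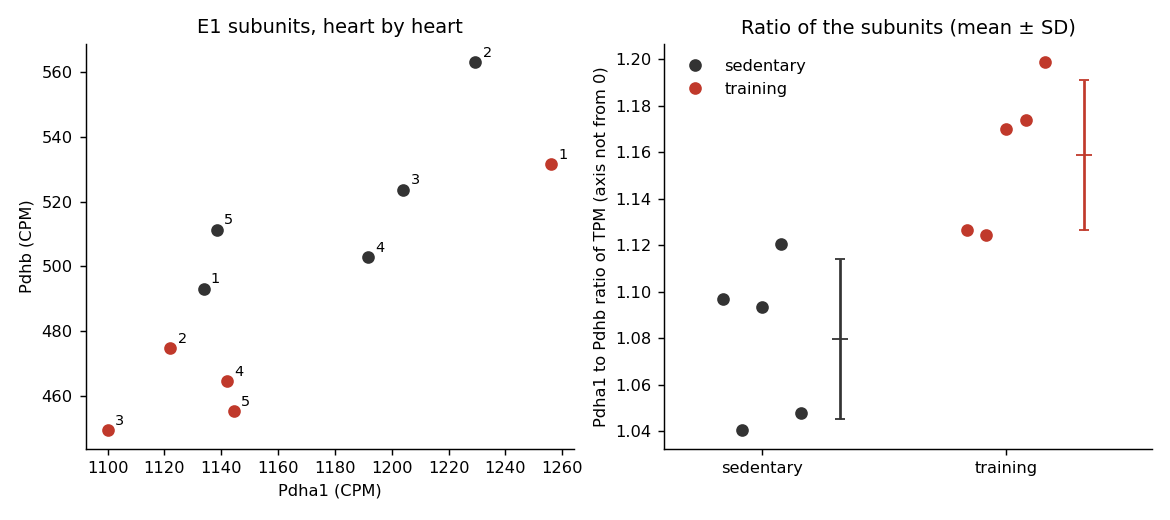
Left, CPM of Pdha1 (horizontal) and Pdhb (vertical) in each heart with the heart's number, and right, the ratio of Pdha1 to Pdhb by TPM in each heart with the mean ± SD (axis not from 0), sedentary in black and training in red. Training heart 1 and sedentary heart 2 lie at the upper right of the left panel. The ratios of 1.12 to 1.20 in the training hearts lie above those of 1.04 to 1.12 in the sedentary hearts. The gap is narrow, from 1.120 to 1.125.

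The promoters of the E1 subunit genes are shown because their products form 1 enzyme. Each window holds 300 bases of GRCm39, from 250 bases before to 50 bases from the annotated start, 5′ to 3′ on the strand of the gene. Pdha1 spans chrX:158921376-158921675 on the minus strand and Pdhb spans chr14:14296489-14296788 on the plus strand. Capitals mark the letters CCAAT, the core of the box bound by NF-Y, or their reverse complement ATTGG.
Pdha1: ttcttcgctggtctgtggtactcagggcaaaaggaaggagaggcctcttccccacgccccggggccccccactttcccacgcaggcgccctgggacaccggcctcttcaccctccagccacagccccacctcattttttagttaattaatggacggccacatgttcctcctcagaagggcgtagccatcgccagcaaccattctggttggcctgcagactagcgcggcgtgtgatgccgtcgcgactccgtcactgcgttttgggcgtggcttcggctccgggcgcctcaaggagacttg
Pdhb: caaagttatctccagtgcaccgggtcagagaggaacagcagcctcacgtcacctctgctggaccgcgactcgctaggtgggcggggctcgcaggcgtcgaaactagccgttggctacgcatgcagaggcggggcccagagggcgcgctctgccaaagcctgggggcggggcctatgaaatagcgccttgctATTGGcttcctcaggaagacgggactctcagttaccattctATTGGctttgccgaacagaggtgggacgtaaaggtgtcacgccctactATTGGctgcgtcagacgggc
The Pdhb window holds the reverse complement 3 times, at positions −59, −18 and 31 from the start, and the Pdha1 window holds none. The letters CCAAT or ATTGG were in 39.04% of the 13562 protein-coding promoters of tested genes and in 7 of the 10 described here. A match of letters does not show that a factor binds.

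The kinases were dominated by Pdk4 and Pdk2 in both groups, and none of the 4 passed the FDR. By TPM, Pdk4 made up 70.5% ± 2.20 (SD, n = 5) of the summed kinase transcripts in the training and 71.0% ± 4.67 (SD, n = 5) in the sedentary hearts. Pdk2 made up 24.5% ± 1.83 and 24.0% ± 3.90, Pdk1 4.69% ± 0.48 and 4.73% ± 0.82, and Pdk3 0.331% ± 0.038 and 0.266% ± 0.068. The ranges of the groups overlapped for each kinase, so that the mix of kinases did not separate the groups.

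Pdk4 (ENSMUSG00000019577, chr6:5483097-5496339, minus strand), the kinase known to be induced by fasting and fatty acids, was at 2553, 2553, 1907, 2618 and 1752 CPM in the sedentary hearts. In the training hearts it was at 1847, 2097, 2278, 2058 and 2306 CPM. In the sedentary group 3 hearts lay at 2553 to 2618 CPM and 2 hearts at 1752 and 1907 CPM, and all 5 training hearts lay between the lowest and the median sedentary heart. The log2 fold change of Pdk4 was −0.10 (standard error 0.108, 95% interval −0.34 to 0.13, adjusted p = 0.646 in edgeR's quasi-likelihood test, Benjamini-Hochberg adjusted). Its spread within the groups, an SD of 0.21 on the log2 CPM scale, was larger than that of 72.3% of the genes tested. The genes most like Pdk4 across the 10 hearts, by Pearson's r of log2 CPM without group means among 8495 genes with at least 10 CPM, were Lrp6, Obsl1 and Rc3h1 with r = 0.87 each and Dlg1 and Acer2 with r = 0.86 each. These 5 values are the highest of 8495 and describe these hearts only.

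Pdk2 (ENSMUSG00000038967, chr11:94914929-94932242, minus strand), a kinase found in most tissues, was at 427, 508, 461, 515 and 532 CPM in the sedentary and at 468, 465, 458, 500.2 and 465 CPM in the training hearts. The training hearts were tightly grouped and lay inside the range of the sedentary hearts. In Pdk2 the log2 fold change was −0.05 (standard error 0.057, 95% interval −0.18 to 0.07, adjusted p = 0.665 in the same edgeR test).

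Pdk1 (ENSMUSG00000006494, chr2:71703488-71734202, plus strand), known as a target of the hypoxia factor HIF-1, was at 192, 203, 191, 190.1 and 191 CPM in the sedentary and at 204, 189.9, 185, 196 and 209 CPM in the training hearts. Sedentary heart 2 stood above the other sedentary hearts, and the training hearts lay on both sides of the sedentary range. In Pdk1 the log2 fold change was 0.03 (standard error 0.041, 95% interval −0.06 to 0.11, adjusted p = 0.790 in the same edgeR test). The spread of Pdk1 within the groups, 0.057 on the log2 CPM scale, was larger than that of only 8.75% of the genes tested.

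Pdk3 (ENSMUSG00000035232, chrX:92789513-92876389, minus strand), the kinase with the lowest level, was at 5.94, 4.50, 5.86, 5.12 and 3.42 CPM in the sedentary and at 5.97, 5.47, 6.88, 5.98 and 5.51 CPM in the training hearts. All 5 training hearts were above the sedentary mean and 3 were above every sedentary heart. The log2 fold change of Pdk3 was 0.26, the largest of the 10, with a standard error of 0.133, a 95% interval of −0.02 to 0.55 and an adjusted p = 0.290 in edgeR's quasi-likelihood test, Benjamini-Hochberg adjusted. The atrial markers named above also differed between the hearts, and with an atrial marker score of each heart in the model the log2 fold change of Pdk3 was −0.01. With a score of clock genes in the model it was 0.40 and passed the FDR (edgeR, adjusted p = 0.0819). That score was the plain mean of 16 clock genes, centred over the hearts, so genes that rose and genes that fell partly cancel. It ranged from −0.05 to 0.16 in the training and from −0.33 to 0.18 in the sedentary hearts. A fit with this score cannot be read as removing a clock difference between the groups.

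The phosphatase Pdp1 rose. Pdp1 (ENSMUSG00000049225, chr4:11957712-11966468, minus strand), the calcium-stimulated phosphatase of muscle and heart, was at 32.9, 35.3, 31.8, 27.9 and 30.5 CPM in the sedentary and at 36.9, 38.1, 34.0, 37.0 and 36.2 CPM in the training hearts. All 5 training hearts were above the sedentary mean and 4 were above every sedentary heart, while training heart 3 lay below sedentary heart 2. Its log2 fold change was 0.20 (standard error 0.058, 95% interval 0.08 to 0.33, adjusted p = 0.0757 in edgeR's quasi-likelihood test, Benjamini-Hochberg adjusted), which ranked 810th of the 15454 genes by p. The call depended on single hearts, since Pdp1 passed the FDR in 3 of the 10 fits that left out 1 heart. Without training heart 1, 2, 4 or 5 or sedentary heart 3, 4 or 5, its adjusted p was 0.115 to 0.155 (edgeR), and its log2 fold change was 0.16 to 0.24 over all 10 such fits. With the atrial marker score in the model, Pdp1 was at 0.27 with an adjusted p = 0.143, and with the clock score at 0.25 with an adjusted p = 0.0290 (edgeR). As for Pdk3, the fit with the clock score cannot be read as removing a clock difference between the groups.

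The promoter of Pdp1, shown because it was the only gene of the 10 to pass, spans chr4:11966403-11966702 of GRCm39 on the minus strand, from 250 bases before to 50 bases from the start, 5′ to 3′. Capitals mark GCGCANGCG, the letters of the binding site of NRF1, a regulator of mitochondrial genes, and the letters CCAAT.
Pdp1: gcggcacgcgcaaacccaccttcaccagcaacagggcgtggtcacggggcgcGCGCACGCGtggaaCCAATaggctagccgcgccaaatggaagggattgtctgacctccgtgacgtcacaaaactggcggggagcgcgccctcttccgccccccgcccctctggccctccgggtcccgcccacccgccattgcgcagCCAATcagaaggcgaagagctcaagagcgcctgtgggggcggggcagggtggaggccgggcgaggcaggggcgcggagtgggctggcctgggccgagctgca
The NRF1 letters begin at position −198 and the CCAAT letters at −184 and −52. Searched on both strands, the NRF1 letters were in 11.3% of the 13562 promoters, and Pdp1 was the only one of the 10 genes to hold them. None of the 10 windows held TCAAGGTCA, the letters of the ERR site (0.361% of all promoters), or GTAAACA, those of the FOXO site (2.71%). CACGTG, the E-box of clock factors, was in Pdk2 and Pdp2 (9.81% of all promoters), and CCGGAAG, the ETS site, was in Pdk3 (14.3%). The GC box GGGCGG, which is not capitalised and shares no base with the marked letters of Pdp1, was in 6 of the 10 and in 56.9% of all promoters.

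Pdp2 (ENSMUSG00000048371, chr8:105318052-105325671, plus strand), the phosphatase known to respond to insulin, was at 38.1, 45.5, 34.3, 36.5 and 34.8 CPM in the sedentary and at 40.3, 36.2, 35.9, 36.5 and 36.6 CPM in the training hearts. Apart from training heart 1, the training hearts were within 1 CPM of each other, and all 5 lay inside the sedentary range. In Pdp2 the log2 fold change was −0.03 (standard error 0.070, 95% interval −0.18 to 0.12, adjusted p = 0.871 in the same edgeR test). By TPM, Pdp1 was at 2.08 ± 0.13 (SD, n = 5) times Pdp2 in the training and at 1.84 ± 0.19 times (SD, n = 5) in the sedentary hearts, with 3 training hearts above every sedentary heart. The summed kinase transcripts were 44.4 ± 3.80 times the summed phosphatase transcripts in the training and 50.7 ± 7.30 times in the sedentary hearts (SD, n = 5), and the ranges overlapped. These ratios describe transcripts and were not tested.

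**Figure D4:**
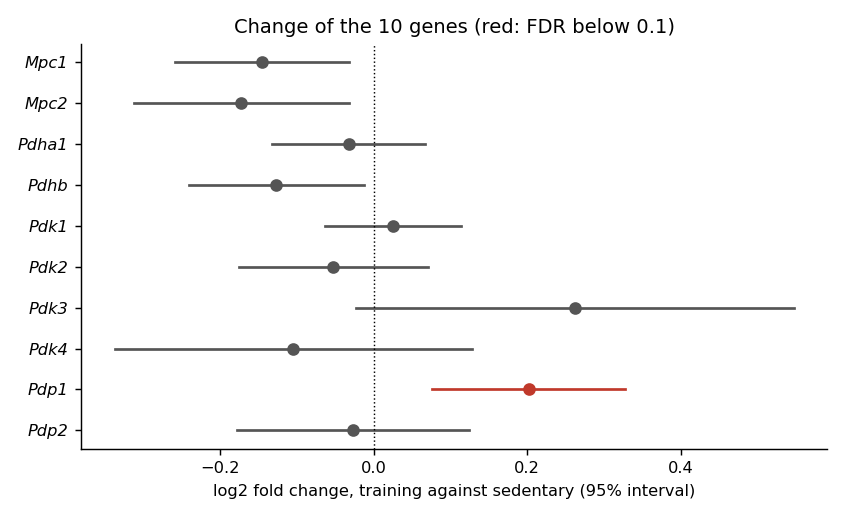
Change of the 10 genes as log2 fold change, training against sedentary (horizontal axis), with points for the estimate and lines for the 95% interval, red where the FDR was below 0.1. Pdp1 at 0.20 is the only red point, and the intervals of Mpc1, Mpc2 and Pdhb lie below 0 without passing the FDR.

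Across the 10 genes, the hearts did not contribute alike. Training heart 1 was the highest training heart in 5 genes (Mpc1, Mpc2, Pdha1, Pdhb and Pdp2) and training heart 3 was the lowest in 6. Sedentary heart 2 was the highest sedentary heart in 6 genes (Mpc2, Pdha1, Pdhb, Pdk1, Pdp1 and Pdp2). Its atrial marker score, −0.72, was the lowest of all hearts. Sedentary heart 5 had a score of −0.61 and was the lowest sedentary heart in 3 genes and the highest in 1. A relation of these ranks to the score was not tested.

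Around these genes, further subunits of the complex and the enzymes of its cofactors were counted. Of 17 tested genes for subunits and for lipoate, iron-sulfur and thiamine supply, 5 fell and none rose, where 4.26% of all genes fell, and the median log2 fold change was −0.10. Pdhx, which anchors the E3 enzyme in the complex, fell from 133 ± 7.61 to 115 ± 7.75 CPM (SD, n = 5 each), a log2 fold change of −0.21 (edgeR, adjusted p = 0.0465). Pdpr, the regulatory partner of the phosphatase Pdp1, fell from 121 ± 4.37 to 111 ± 3.43 CPM (SD, n = 5 each), a log2 fold change of −0.13 (edgeR, adjusted p = 0.0922). Bola3, Isca2 and Nfu1, factors of iron-sulfur cluster delivery on which lipoate synthesis depends, had log2 fold changes of −0.29, −0.20 and −0.15 (edgeR, adjusted p = 0.0246, 0.0588 and 0.0649). The thiamine transporter Slc19a3 was at 0.29 on the log2 scale and did not pass (edgeR, adjusted p = 0.607). Its level was very low, at 0.47 CPM in the sedentary and 0.59 CPM in the training hearts. Of the fits that left out 1 heart, Bola3 passed the FDR in 10 of 10, Pdhx in 6, Isca2 and Nfu1 in 4 each and Pdpr in 1.

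Over all genes tested, 2.75% rose and 4.26% fell, and the counts of the lists below stand beside these shares. Of 15 genes for other uses of pyruvate, 1 rose and 3 fell, with a median of −0.08. Slc16a7, the transporter MCT2 for lactate and pyruvate, rose from 9.64 ± 0.33 to 12.5 ± 0.76 CPM (SD, n = 5 each), a log2 fold change of 0.37 (edgeR, adjusted p = 0.00871). Gpt, which exchanges pyruvate and alanine, fell from 33.4 ± 1.92 to 26.0 ± 2.21 CPM (SD, n = 5 each), a log2 fold change of −0.36 (edgeR, adjusted p = 0.0116). Bsg, the chaperone of lactate transporters, had a log2 fold change of −0.22 and Me1, the malic enzyme of the cytosol, of −0.19 (edgeR, adjusted p = 0.0274 and 0.0386). Of 9 genes of the related 2-oxoacid dehydrogenases, 2 fell, and the median was −0.05. Ogdhl, of the 2-oxoglutarate dehydrogenase family, and Dlst, another subunit of that complex, had log2 fold changes of −0.25 and −0.16 (edgeR, adjusted p = 0.0231 and 0.0541). Ogdh, at 2679 CPM in the training hearts against 184 CPM for Ogdhl, was at −0.08 and did not pass (edgeR, adjusted p = 0.480). Of 8 genes of mitochondrial calcium handling, 1 fell, Letm1 with a log2 fold change of −0.24 (edgeR, adjusted p = 0.0123), while Mcub was at −0.13 (adjusted p = 0.656), and the median was −0.03. In fits without 1 heart, Slc16a7, Gpt, Bsg, Ogdhl and Letm1 passed in 10 of 10, Me1 in 9 and Dlst in 3.

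Of 18 genes for known regulators of Pdk4, 1 rose and 3 fell, where 2.75% and 4.26% of all genes did. Their median log2 fold change was −0.08. The fatty acid receptors Ppara, Ppard and Pparg fell with log2 fold changes of −0.27, −0.17 and −0.29 (edgeR, adjusted p = 0.0611, 0.0533 and 0.0535), and the glucocorticoid receptor Nr3c1 rose with 0.23 (edgeR, adjusted p = 0.0158). Their coactivator Ppargc1a was at −0.29 and did not pass (edgeR, adjusted p = 0.357). Of 21 tested targets of these receptors, a list that does not hold Pdk4, 4 fell and none rose, with a median of −0.13. They were Plin5, of lipid droplets, with −0.47, the fatty acid binding protein Fabp3 with −0.30, the carnitine carrier Slc25a20 with −0.23 and the fatty acid transporter Cd36 with −0.21 (edgeR, adjusted p = 0.00871, 0.0105, 0.0354 and 0.0475), beside −0.10 for Pdk4. Nr3c1, Plin5, Fabp3 and Slc25a20 passed in all 10 fits that left out 1 heart, Ppara, Pparg and Cd36 in 6 and Ppard in 5. With the atrial marker score in the model, the 20 genes called in these 6 lists kept their direction, with log2 fold changes of 0.625 to 1.15 times those without the score (median 0.867). Among the changes that shrank little or grew, Me1 was at −0.21, Cd36 at −0.23, Slc25a20 at −0.23, Fabp3 at −0.27 and Nr3c1 at 0.23. Ppard and Dlst shrank most, from −0.17 to −0.11 and from −0.16 to −0.10, and Ogdhl went from −0.25 to −0.17. In that model 1 of the 20, Plin5, passed the FDR (edgeR, adjusted p = 0.0723), and the call was lost in the other 19. Over all genes, the calls went from 1084 to 98. The score itself differed between the groups, with medians of 0.26 in the training and −0.13 in the sedentary hearts. Training and atrial share therefore cannot be told apart in this model, and the part of the atria was not tested.

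**Figure D5:**
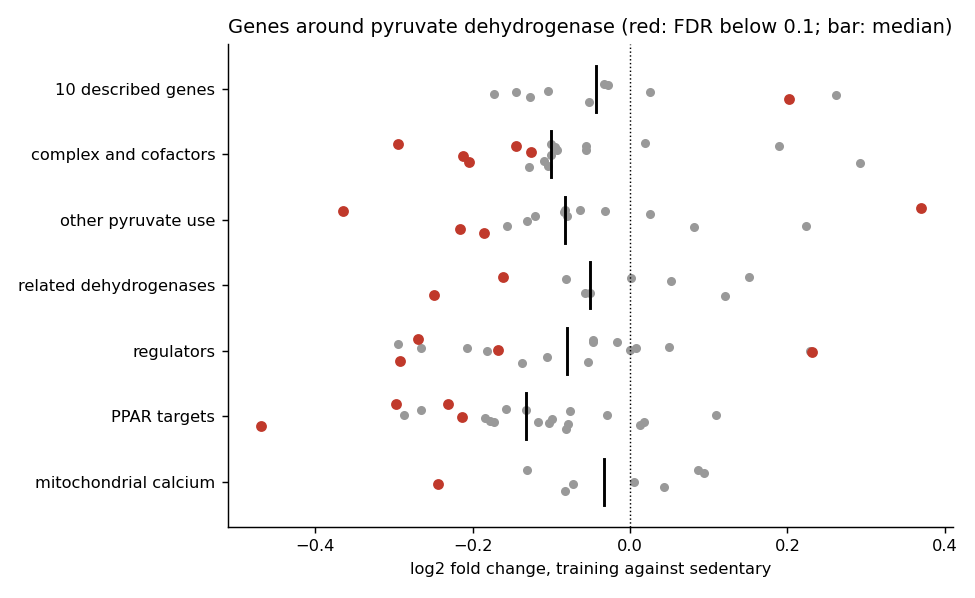
Log2 fold change, training against sedentary (horizontal axis), of the tested genes of each list (rows), 1 point per gene, red where the FDR was below 0.1, with a bar at the median. The 10 described genes have a median of −0.04, and the medians of the 6 other lists lie between −0.13 and −0.03.

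Glucocorticoid and clock genes were listed because both systems are known to act on Pdk4. Over all genes tested, 2.75% rose and 4.26% fell, and of 11 glucocorticoid-induced genes 5 fell and none rose (median −0.34). These were Ddit4, Cdkn1a, Errfi1, Fkbp5 and Mt1, with log2 fold changes of −0.90, −0.79, −0.66, −0.50 and −0.32 (edgeR, adjusted p from 0.00504 to 0.0932). In fits without 1 heart, Cdkn1a and Mt1 passed in 10 of 10, Errfi1 in 3, Ddit4 in 2 and Fkbp5 in 1. Of 16 clock genes, 6 rose (Per3, Nr1d2, Tef, Cry2, Bhlhe41 and Cry1, from 0.80 down to 0.23) and 3 fell (Bmal1 with −1.19, Npas2 with −0.47 and Clock with −0.30), with adjusted p from 0.0154 to 0.0877 (edgeR). Of these, Bmal1, Clock, Per3 and Nr1d2 passed in 10 of 10 fits without 1 heart, Bhlhe41 in 8, Cry2 in 7, Npas2 and Tef in 5 each and Cry1 in 3. Clock genes differ by time of day, and the time at which each heart was taken is not given in the sources used here. With group means removed, r of the clock score was 0.80 with Pdk2, −0.66 with Pdk3 and −0.59 with Pdp1 (10 hearts, no test). In the other genes r lay between −0.48 and 0.29. The part of the time of day in the values of the 10 genes was not tested.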

How the data were processed

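Whole hearts of 5 training and 5 sedentary mice were profiled by poly-A RNA-seq with directional libraries, read singly in 1 pool. The authors aligned the reads with STAR 2.7.10a to GRCm39 and deposited, per heart, the count of reads with a unique position on each gene, by strand, and, from RSEM 1.3.3, expected counts, TPM values (scaled by transcript length and to a common total) and gene lengths. The deposited counts were not normalized. Counts on the reverse strand, which made up 95.4% of the stranded counts (median), were used. Between 17.9% and 19.2% of reads mapped to several places and are not in these counts.

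Symbols and positions were taken from GENCODE M39, which matched 56017 of the 56748 identifiers. Genes were filtered with filterByExpr, scaled by TMM and tested with edgeR 4.0.16 (quasi-likelihood test, R 4.3.3), with Benjamini-Hochberg adjustment over 15454 genes and the study's FDR of 0.1. CPM are on the TMM scale. Intervals and standard errors come from this model. The p-values of this model weigh the difference between the groups against the spread between mice of each group, estimated with information from all genes. Correlations used 100000 permutations. Copies of transcripts were sought in the genome with blastn 2.17.0 (at least 300 bases and 90% identity), and promoters were read from the GRCm39 genome. The code was tested on simulated data.

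The 10 genes and the gene lists were chosen with earlier results of these data known. All 10 genes are named, with, from each list around them, the genes called and the 2 with the largest change, and the 5 genes most like Pdk4. Alternatives were DESeq2 1.42.0 (the study's tool), its size factors, library totals, 2 other filters (none, or at least 10 counts in every heart), RSEM expected counts rounded to whole numbers, counts of both strands, a replicate block, removal of the trend with gene length, atrial and clock scores as covariates, an FDR of 0.05 and leaving out each heart. Markers of fibroblasts (2 of 8 higher, Pdgfra and Lum), mural cells (Tagln and Cnn1 of 6 higher, Rgs5 lower), endothelium (Tie1 of 7 lower) and cardiomyocytes (Actc1 of 9 lower) were also counted and are named after their values were seen, and none of 7 macrophage, 5 erythroid, 7 tested adipocyte and 4 tested skeletal muscle markers was called in edgeR. The sums of the 7 endothelial markers were 810.6 to 871.4 CPM in the training and 890.1 to 933.2 CPM in the sedentary hearts. They did not overlap between the groups, while the sums of every other marker list did. The part of these cells in the results was not tested.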

Additional observations from a re-analysis of the deposited data

Results flagged for a closer look

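In 9 of the 118 groups of 5 hearts examined, 1 heart lay apart from the other 4 by Dixon's test at its 95% critical value. All 9 were in named genes. Chance flags about 5.0% of such groups. Of these 9, 5 were among the 10 described genes. Mpc1 was at 107.6 CPM in sedentary heart 1, below the 118 to 122 CPM of the other sedentary hearts. Pdha1 was at 1256 CPM in training heart 1, above the 1100.0 to 1145 CPM of the other training hearts, and Pdp2 was at 40.3 CPM in the same heart, above 35.9 to 36.6 CPM. Pdk1 was at 203 CPM in sedentary heart 2, above 190.1 to 192 CPM. Pdk2 was at 500.2 CPM in training heart 4, above 458 to 468 CPM.

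The other 4 were in genes of the lists. Cd36 was at 1713 CPM in sedentary heart 5, below 1867 to 1921 CPM, and Mt1 was at 238 CPM in sedentary heart 4, above 207 to 215 CPM. Cry2 was at 50.6 CPM in training heart 4, above 44.9 to 46.5 CPM, and Ogdhl was at 166 CPM in training heart 3, below 184 to 191 CPM.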

How the results depend on the processing

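Of the 10 genes, the main analysis called 1, Pdp1. In the 11 other fits with all 10 hearts, Pdp1 passed an FDR of 0.1 in 9, with adjusted p from 0.0264 (DESeq2, Benjamini-Hochberg adjustment) to 0.143 (edgeR). None of the 10 was called after removal of the length trend (Pdp1, edgeR, adjusted p = 0.102), with the atrial score or at an FDR of 0.05, where the counts are 0, and the clock score gave 2 (Pdk3 and Pdp1). Leaving out each heart in turn gave 0 to 3 of the 10 genes and 512 to 1490 of all genes, with 512 without training heart 4 or sedentary heart 3. Mpc1 passed without training heart 1 or sedentary heart 1, Mpc2 without training heart 1 or sedentary heart 5 and Pdhb without training heart 1. Of all genes, 98 were called with the atrial score, 505 at an FDR of 0.05, 1473 by DESeq2 and 1084 in the main analysis.

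The direction turned for Pdha1 with library totals (0.020), for Pdk1 with the length trend removed (−0.011), for Pdk2 with library totals (0.0034) and the atrial score (0.028), for Pdk3 with the atrial score (−0.0071), and for Pdp2 with library totals (0.025), the atrial score (0.039) and without sedentary heart 2 (0.047, against −0.059 without training heart 1), all log2 fold changes that passed no threshold. Library totals raised the median log2 fold change of all genes by 0.053 and turned the split of calls from 425 higher and 659 lower to 1029 higher and 339 lower. The cause of these shifts was not tested.

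The labels state no pairing of the hearts by mouse number, and the values showed no clear one, which does not show that there is none. Residuals of same-numbered hearts correlated at −0.097 to 0.159, and 1 of 5 numbers had its highest correlation with its own partner. With the number as a replicate block, 2 of the 10 genes were called, Pdp1 and Mpc2, and 1137 of all genes. The depth of 125 to 257 reads per heart limits Pdk3, and the unique counts limit Mpc1.

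The lists changed with the settings. Over 22 alternatives, 0 to 5 genes were called among the further subunits and cofactors, 0 to 6 among other uses of pyruvate, 0 to 2 among related dehydrogenases, 0 to 5 among regulators, 1 to 5 among receptor targets and 0 to 2 in calcium handling, and 2 to 8 and 2 to 12 of the glucocorticoid and clock genes.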
